A study of Homo sapiens with 16 samples.

Results

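Open chromatin of senescent fibroblasts was compared with and without knockdown of FOXF1 and FOXF2, in 6 of the 16 ATAC-seq libraries of the series. ATAC-seq uses a transposase to place sequencing adapters into accessible DNA, and a peak is a stretch where such insertions pile up. The cells were IMR-90 ER:Ras, a derivative of the established human lung fibroblast line IMR-90 with an oncogenic Ras protein made to depend on an oestrogen receptor ligand. All 6 libraries came from cells kept for 6 days in 4-hydroxytamoxifen (4-OHT) at 100 nM, which switches Ras on and drives the cells into senescence. The control group was 4 paired-end libraries with control siRNA (Sen, replicates 1 to 4), and the knockdown group was 2 paired-end libraries with siRNA against FOXF1/2 (siFOXF1/2, replicates 1 and 2). Both groups therefore carry active Ras, siRNA transfection and 4-OHT, and the series gives no FOXF1/2 knockdown in proliferating cells. Outside this comparison, proliferating cells with control siRNA and no 4-OHT (Pro) and senescent cells with siRNA against JUN-family members (JUN-KD; the titles name cJUN and JUND, the treatment label JUNB as well) were paired-end, 2 libraries each, and single-end libraries, also 2 each, covered Sen, sip300/CBP and sip65. The Pro libraries were taken as proliferating from their titles, since their cell type label reads senescent.

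FOXF1 and FOXF2 are forkhead transcription factors, proteins that bind DNA through a winged-helix domain, and they are known as factors of mesenchymal cells including the fibroblasts of the lung. Accessible sites away from promoters are often enhancers, where transcription factors recruit coactivators. The acetyltransferases p300 and CBP are such coactivators, and p65 (RELA) is a subunit of NF-kB, which is known to drive secreted inflammatory factors in senescent cells. JUN proteins are subunits of AP-1, another factor of senescent enhancers.

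The deposited peak lists of the 6 libraries held 96512 to 100656 peaks on chromosomes 1 to 22 in Sen, and 105828 and 100125 after knockdown. Merging every group of peaks that shared 1 bp or more gave 142398 regions, all positions being given for genome build hg19. Strength is the authors' own fold enrichment of the summit above its local background (column 7 of each list). Depth was read from the background coverage, which was 2.50 to 3.06 in Sen and 2.61 and 1.93 after knockdown. Median strength over each whole list was 9.16 to 9.37 in Sen and 10.0 and 9.91 after knockdown, where the two-sided exact permutation p of 0.133 is the smallest that 2 libraries against 4 can give. Sen replicates 3 and 4 stood apart from the rest: their median peak width was 392 and 321 bp against 471 and 460 bp in Sen replicates 1 and 2 and 471 and 450 bp after knockdown, and their peak names carry another prefix style. The leading principal component of strength at shared regions, 53.1% of the variance, placed the knockdown libraries at 0.59 and 0.45, Sen replicates 1 and 2 at -0.10 and -0.03, and Sen replicates 3 and 4 at -0.40 and -0.52. No label says that replicates were separate cultures, so p-values measure the spread between these libraries only. How far FOXF1 and FOXF2 were reduced cannot be read from peak lists.

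Loss and gain of whole peaks was the first measure. Of 74794 regions held by all 4 Sen libraries, 6053 (8.09%) had no peak in either knockdown library and are called closed, 4848 had a peak in only 1 of them, and 63893 were kept in both. Of 88970 regions held by both knockdown libraries, 8631 (9.7%) had no Sen peak and are called opened. Presence in 2 against 4 libraries carries no test, because the smallest Fisher p per region is 0.0667. Without siFOXF1/2 replicate 2 the counts were 9311 closed and 17645 opened, and without any 1 of the other libraries they ranged between 6847 and 7643 closed and 9196 and 11644 opened.

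Closed and opened regions were weak and narrow beside kept ones. Median strength of the closed regions was 8.09, 8.31, 7.74 and 7.96 in Sen replicates 1 to 4, against 10.8, 10.9, 10.8 and 11.0 for the kept regions in the same libraries. Opened regions had medians of 8.86 and 7.99 in the 2 knockdown libraries, where kept regions had 11.7 and 11.4. The median covered width was 250 to 350 bp for closed and 305 and 351 bp for opened regions, against 431 to 601 bp for kept ones. When the Sen regions were put into 10 equal groups by their lowest strength over the Sen libraries, 17.5% of the weakest group and 0.869% of the strongest closed. Weak peaks lie close to the limit of listing, and the part this played was not tested.

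At the strong end, however, some closed regions lay well above that limit. The region on chromosome 1 at 231384450 to 231384801 had strengths of 23.6, 23.5, 20.4 and 19.5 in Sen replicates 1 to 4 and no peak after knockdown. From the coverage a peak must reach to be listed, its summit was at least 4.05 times higher in Sen than could have stayed unlisted in the knockdown libraries. This region also had a peak in both single-end Sen libraries and in none of the sip300/CBP, sip65, Pro or JUN-KD libraries. The region on chromosome 11 at 99644309 to 99644939 had strengths of 20.1, 18.7, 22.1 and 20.2 in Sen and a bound of 4.17. It kept a peak in both sip65 and both JUN-KD libraries and in 1 sip300/CBP library. On chromosome 3, the region at 168341938 to 168342395 had 18.9, 18.6, 19.7 and 18.5 with a bound of 3.49. The 4 Sen values of that region were close together, and none of the Pro and sip300/CBP libraries held it. On chromosome 11, the region at 71902961 to 71903425 had 18.2, 19.95, 21.4 and 20.7 with a bound of 4.57, and it was the only member of these 5 with a peak in all 6 single-end libraries, at 16.4 and 14.2 in sip300/CBP and 11.1 and 9.54 in single-end Sen. On chromosome 5, the region at 30828456 to 30828987 had 18.0, 18.3, 18.9 and 21.7 with a bound of 3.78, and the only other library that held it was JUN-KD replicate 2. Of these 5 closed regions, 1 had a Pro peak, in Pro replicate 2 only.

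Opened regions reached still higher strengths. The strongest, on chromosome 1 at 569805 to 570077, stood at 31.3 and 24.6 in the 2 knockdown libraries with a bound of 7.09. It lies in a stretch of chromosome 1 that is known to resemble mitochondrial DNA in this build, and it also had a peak in all 6 single-end libraries (9.28 to 17.4), Sen included, and in no other paired-end library. Mitochondrial peaks number 8 to 10 in every single-end list and 0 in every paired-end list, those of the knockdown included. The part that reads of mitochondrial origin played at this region was not tested. The next regions were on chromosome 9 at 3578890 to 3579121, with 22.8 and 23.5 (bound 6.38), and on chromosome 14 at 52858468 to 52859006, with 22.3 and 21.6 (bound 5.88). The chromosome 9 region had peaks in both single-end Sen and both sip300/CBP libraries and in neither sip65 library, and the chromosome 14 region had a peak in no library outside the knockdown. On chromosome 11 the region at 105136469 to 105136899 had 23.3 and 21.4 with a bound of 6.29, and on chromosome 5 the region at 59492300 to 59492599 had 20.9 and 22.4 with a bound of 4.84. The chromosome 11 region also had a peak in single-end Sen replicate 1. The chromosome 5 region had peaks in single-end Sen replicate 1 and both sip300/CBP libraries. Of these 5 opened regions, only the chromosome 14 region lacked a single-end Sen peak, and none had a peak in Pro or JUN-KD. Across all opened regions, 5 had a peak in all 6 single-end libraries, so the region near the start of chromosome 1 belongs to a small group.

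The widest regions differed from the strongest ones. Of the 5 widest closed regions, 4 had mean Sen strengths of 5.48 to 8.01 and were held by both Pro and both JUN-KD libraries: chromosome 5 at 649008 to 651423, chromosome 21 at 10084989 to 10087316, chromosome 9 at 44877969 to 44880055 and chromosome 16 at 46396170 to 46397885. Their bounds were 0.771, 1.05, 0.981 and 0.976, so a difference from the knockdown libraries was not detectable at this depth. The exception was chromosome 3 at 73366864 to 73368631, a region of 1768 bp with strengths of 12.2, 11.6, 10.6 and 11.1 in Sen, a bound of 2.04 and no peak in Pro or JUN-KD. Among the widest opened regions, those on chromosome 8 at 123100860 to 123102462 (10.6 and 10.7, bound 3.55) and on chromosome 4 at 142337378 to 142338880 (12.4 and 11.4, bound 3.59) had similar strengths in both knockdown libraries and a peak in no other library. The region on chromosome 10 at 13685106 to 13686594 was weaker, at 3.89 and 4.096, and that on chromosome 3 at 37070762 to 37072243 had 9.94 and 6.32. The widest of all, on chromosome 6 at 119558558 to 119560297, had 32.5 in replicate 1 but 3.09 in replicate 2. It stood at 34.01 to 43.1 in all 6 single-end libraries, Sen included, and was absent from the paired-end Sen lists.

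Whether accessibility also moved where peaks stayed was asked at the 63893 kept regions. Strength fell at 3062 regions (4.79%) and rose at 1987 (3.11%) after knockdown, by limma with Benjamini-Hochberg adjustment at 0.05 on log2 strength, each library centred on its median. The median change was -0.67 on the log2 scale among the regions that fell and 0.68 among those that rose, and 309 and 126 regions changed by at least 1. Regions that fell went from a median strength of 12.6 in Sen to 8.02, and those that rose from 8.24 to 14.5, beside 10.9 and 11.6 for all kept regions. Both knockdown libraries carried the change: relative to the Sen mean the falls had medians of -0.74 and -0.59 and the rises 0.72 and 0.64 in replicates 1 and 2. At every region called, the knockdown and Sen values did not overlap, which held for 36.6% of all kept regions. A region had to keep a peak in every library to enter this test, so the strongest losses and gains, counted above, are not in it.

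**Figure D1:**
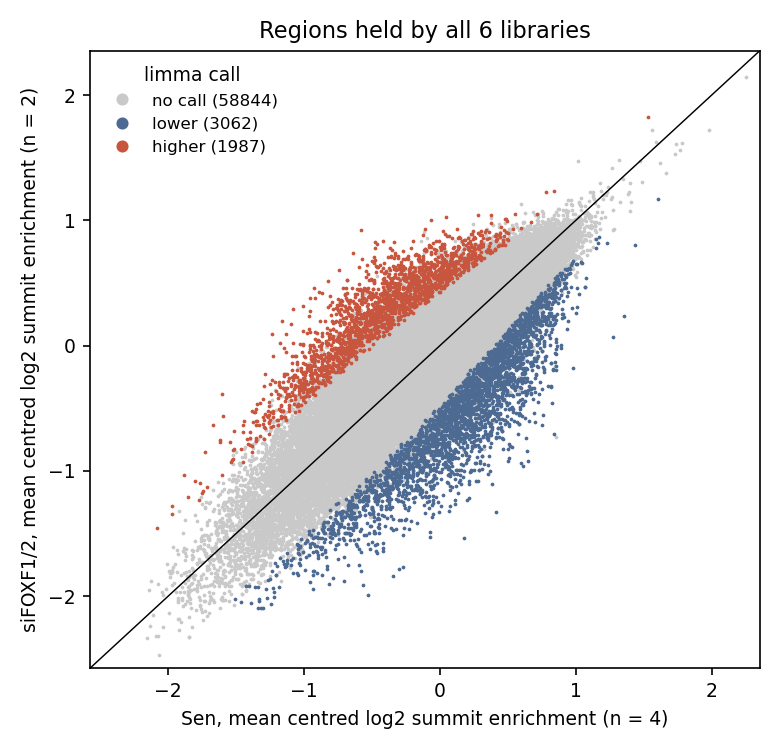
Mean centred log2 summit enrichment in the 2 siFOXF1/2 libraries (y axis) against the 4 Sen libraries (x axis) at each of the 63893 regions held by all 6, with the regions that limma called lower (3062) or higher (1987) in colour and equal values on the black line. Regions called lower sit mostly on the right, at higher Sen strength, and regions called higher in the middle and on the left.

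The counts depended on the libraries. Leaving out either siFOXF1/2 replicate leaves 1 knockdown library. Far fewer regions were then called, and not all of them were among those reported. Without Sen replicate 2 there were 4642 falls and 3919 rises, and without Sen replicate 3 there were 1440 and 943. Against Sen replicates 1 and 2 alone, which share the prefix style of the knockdown, there were 1148 and 1151. Of these, 949 falls and 634 rises were among those reported. Every called region kept its sign in each of these fits. With groups that do not overlap at any called region, leaving out libraries could hardly change a sign, so this is no separate result. Without centring the balance turned, to 2094 falls and 3664 rises.

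The largest fall was on chromosome 2 at 204029004 to 204029574. Its strength was 15.3, 17.3, 15.0 and 11.2 in Sen replicates 1 to 4 and 3.87 and 5.47 after knockdown, a log2 change of -1.74 ± 0.20 (SE; limma adjusted p = 0.00365). The covered width fell as well, with 502 to 561 bp in Sen against 186 and 284 bp. On chromosome 14 the region at 71904357 to 71904812 went from 11.0, 12.1, 12.7 and 13.7 to 3.70 and 4.28 (log2 change -1.72, limma adjusted p = 0.00183). On chromosome 1 the region at 162710401 to 162710857 went from 18.3, 16.5, 15.3 and 18.4 to 6.36 and 5.81 (log2 change -1.57, limma adjusted p = 0.00142). In these 3 regions every Sen value was more than 2 times the higher knockdown value. In the single-end lists each of the 3 had a peak in at least 1 sip65 library and in neither sip300/CBP library, but only the chromosome 14 region had a Sen peak there, in replicate 2.

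On chromosome 13 the region at 110048517 to 110048985 had 15.9, 17.2, 16.8 and 16.7 in Sen and 4.35 and 8.06 after knockdown, where the 2 knockdown libraries differed more than the 4 Sen libraries did. On chromosome 11 the region at 16582795 to 16583181 went from 17.6, 19.5, 20.1 and 21.2 to 6.09 and 8.20, and Pro held it too (14.7 and 12.5). On chromosome 18 the region at 34360593 to 34361142 went from 18.6, 14.2, 17.0 and 16.7 to 6.64 and 5.47. The 3 log2 changes were -1.57, -1.55 and -1.54. The last pair lay close together on chromosome 2, at 216266571 to 216267344 and at 216275520 to 216276294. There the strength was 6.99 to 10.7 in Sen against 3.22 and 3.25, and 7.99 to 10.4 against 3.25 and 3.55. For this pair the fall was seen in the enrichment over the local background and was not called in the summit itself. The summit pileup over the genome-wide background changed by -0.27 (limma adjusted p = 0.203) and -0.13 (limma adjusted p = 0.598) on the log2 scale, and the other 6 falls kept their call on that measure, with changes from -1.43 to -2.45.

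The rises were similar in size. On chromosome 6 the region at 54390483 to 54391040 had strengths of 8.20, 8.29, 5.67 and 7.29 in Sen and 23.3 and 20.5 after knockdown, a log2 change of 1.503 ± 0.17 (SE; limma adjusted p = 0.00365). Its covered width rose as well, with 174 to 216 bp in Sen against 497 and 543 bp, and no library outside the 6 held it. On chromosome 8 the region at 19529589 to 19530066 rose from 6.15, 7.43, 4.68 and 5.05 to 17.7 and 14.2 (log2 change 1.38). On chromosome 16 the region at 77978847 to 77979338 rose from 9.22, 5.71, 5.67 and 8.08 to 20.5 and 18.2 (log2 change 1.38). Groups that do not overlap were a condition for naming these regions, as for all those named for strength. On chromosome 14 the region at 50799651 to 50800257 had 4.47 to 5.89 in Sen and 17.0 and 11.7 after knockdown. On chromosome 4 the region at 53799025 to 53799799 had 4.34 to 5.32 in Sen and 13.8 and 12.7 after knockdown. The remaining rises were on chromosome 18 at 26752069 to 26752871 (5.33 to 8.00 in Sen, 18.0 and 17.1 after knockdown), on chromosome 13 at 111108229 to 111108650 (4.55 to 7.04, then 18.5 and 12.2) and on chromosome 4 at 57861495 to 57862107 (5.61 to 6.90, then 17.6 and 15.4). None of the 8 rises had a peak in either sip65 library, and 2 had one in a sip300/CBP library. Single-end Sen held only the chromosome 16 region (5.92, replicate 2), so for the other rises absence from sip65 has no control peak beside it. Without siFOXF1/2 replicate 1, the rises on chromosomes 8, 16, 14, 18 and 13 missed the threshold, with limma adjusted p from 0.0557 to 0.108. On summit pileup over background all 8 rises were called, with log2 changes from 1.35 to 2.34 for 7 of them and 0.69 (limma adjusted p = 0.049) for the region on chromosome 13.

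**Figure D2:**
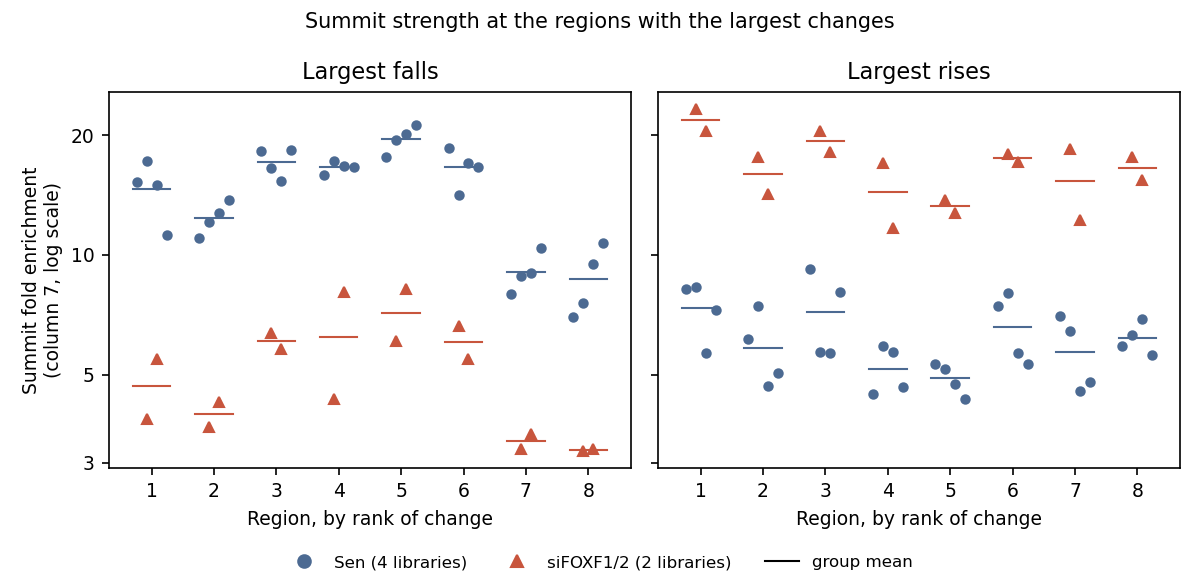
Summit fold enrichment (log scale) in each Sen library (circles) and each siFOXF1/2 library (triangles), with group means as lines, at the 8 regions with the largest falls (left) and the 8 with the largest rises (right), ranked by log2 change. The 16 regions were chosen so that circles and triangles do not overlap. Falls 7 and 8, the pair on chromosome 2, start from Sen values of 6.99 to 10.7.

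Peak width followed strength in part. Among the kept regions 530 (0.83%) narrowed and 303 (0.474%) widened by limma at an adjusted p of 0.05, with median log2 changes of -1.20 and 1.24. Of the narrowed regions 188 (35.5%) also fell in strength, against 4.79% of all kept regions, and these were 6.14% of the falls. Of the widened regions 80 (26.4%) also rose in strength, against 3.11%, and these were 4.03% of the rises. The width calls were not made in every fit. Against Sen replicates 1 and 2 alone, which also leaves fewer libraries, limma called 0 narrower and 0 wider, with 5742 and 5171 regions at an unadjusted p under 0.05. With the prefix style as a covariate 101 and 33 were called. Without centring, which moves the median width change from -0.04 to 0.11, 0 and 0 were called as well, with 2692 and 5616 at an unadjusted p under 0.05. Leaving out Sen replicate 1, 2, 3 or 4 gave 286 and 224, 609 and 534, 122 and 72, or 368 and 159, and leaving out siFOXF1/2 replicate 1 or 2 gave 204 and 20 or 563 and 90. The position of the summit was also compared. At 58280 kept regions with a single peak in every library, summits lay a median of 15 to 22 bp apart between Sen and knockdown, 10 to 18 bp between Sen libraries and 12 bp between the knockdown libraries, so the ranges overlap.

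The single-end libraries share no library with the 6 above, and their Sen controls allow the same regions to be read under knockdown of p300/CBP and of p65. Regions that closed or fell after FOXF1/2 knockdown lacked a peak after p300/CBP knockdown more often than kept regions did. Of 807 closed regions with a peak in both single-end Sen libraries, 67.8% had none in sip300/CBP replicate 1, 76.1% none in replicate 2 and 64.8% none in either. The same shares were 15.4%, 25.9% and 12.6% for 35921 kept regions. For 1797 kept regions whose strength fell they were 42.1%, 51.1% and 38.0%, and for 578 whose strength rose 19.9%, 33.0% and 14.9%. Peaks in the single-end lists are subject to the same limit of listing, so the regions were also divided into 3 groups by their strength in single-end Sen. In the strongest group the share without a peak in either sip300/CBP library was 48.6% of 105 closed, 17.9% of 581 fallen and 4.02% of 12145 kept regions, and in the weakest group 73.1%, 55.0% and 21.6%. The order closed, fallen, kept thus held in each of the 3 groups and in both sip300/CBP libraries.

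Knockdown of p65 gave another order. Neither sip65 library had a peak at 49.3% of the 807 closed regions, at 16.8% of the 1797 that fell, at 54.5% of the 578 that rose and at 20.7% of the 35921 kept regions. Regions that rose after FOXF1/2 knockdown were thus the set with the highest share lacking a peak after p65 knockdown, and those that fell had the lowest. In replicate 1 alone the shares were 51.5%, 18.8%, 55.4% and 22.2%, and in replicate 2 81.2%, 51.4%, 91.2% and 58.6%. In the strongest of the 3 groups they were 25.7% of 105 closed, 7.40% of 581 fallen, 35.7% of 112 risen and 7.44% of 12145 kept regions for absence from both. The sip65 lists were short, with 43377 and 17707 peaks on chromosomes 1 to 22 against 53719 and 66524 in single-end Sen and 69760 and 45808 in sip300/CBP, and the part of list length was not tested. With 2 libraries a group no permutation test could pass 0.05, so these shares are descriptions.

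**Figure D3:**
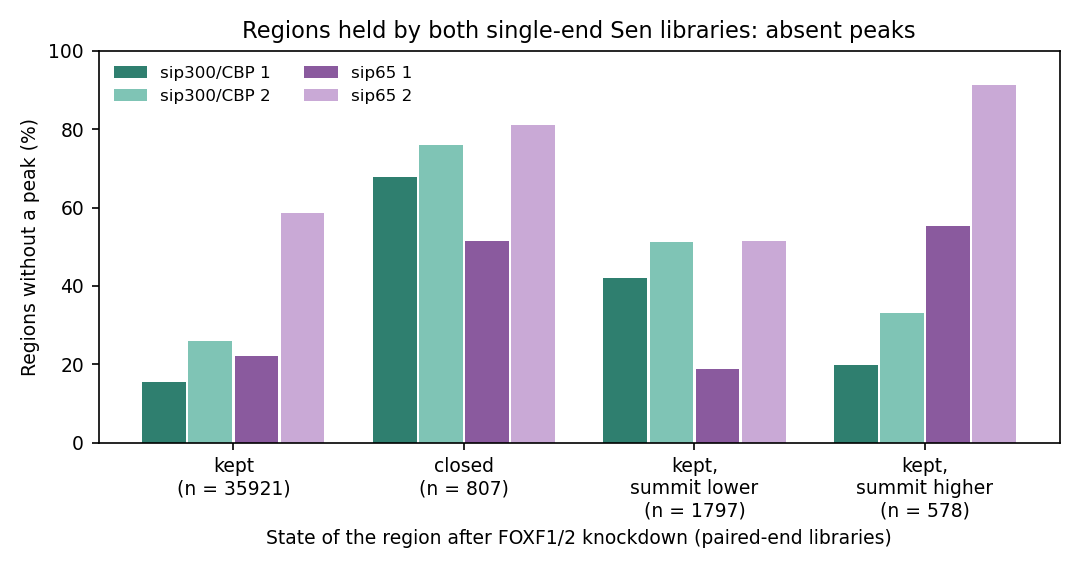
Percent of regions without a peak in each sip300/CBP and sip65 library, among regions held by both single-end Sen libraries, for all kept regions, closed regions, and kept regions whose summit strength fell or rose after FOXF1/2 knockdown (n regions under each set). Bars for sip300/CBP are tallest at closed regions (67.8% and 76.1%), and bars for sip65 at regions that rose (55.4% and 91.2%).

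Where peaks remained in the single-end libraries, their strength moved little. At 804 regions that fell and kept a peak in both Sen and both sip300/CBP single-end libraries, the median log2 change after p300/CBP knockdown was -0.05 (-0.06 and -0.03 in replicates 1 and 2), against 0.00 for all 25618 such kept regions. At 358 regions that rose it was 0.10 (0.12 and 0.07). Single-end Sen replicate 1 differed from replicate 2 by -0.05 and 0.04 at the same sets, so these shifts are of the size of the difference between controls for the falls and above it for the rises. After p65 knockdown the medians were 0.05 at 837 regions that fell and -0.08 at 46 that rose.

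Opened regions were looked up in the same way. Of 7593 opened regions with no peak in single-end Sen, 12.7% and 5.62% had one in sip300/CBP replicates 1 and 2, against 25.7% and 10.8% of 15883 kept regions with no single-end Sen peak. In sip65 they were 0.553% and 0.0132%, against 10.3% and 1.16%. Among all opened regions 18.0% and 10.1% had a peak in the sip300/CBP libraries, 7.98% and 8.06% in single-end Sen and 1.53% and 0.197% in sip65. For all closed regions the shares were 8.46% and 5.17% in sip300/CBP, 16.9% and 29.5% in single-end Sen, and 21.3% and 6.08% in sip65. The paired-end libraries outside the comparison gave 16.6% and 20.3% (Pro) and 18.2% and 18.8% (JUN-KD) for closed regions, and 8.61% and 9.22% (Pro) and 7.31% and 6.29% (JUN-KD) for opened ones. Kept regions had a peak in 76.5% and 77.2% of cases in Pro and in 69.7% and 69.4% in JUN-KD. Of the regions that fell in strength 68.1% and 71.6% had a peak in the JUN-KD libraries, and of those that rose 40.2% and 39.7%. The order was the same in control libraries. In Pro 69.5% and 71.1% of the falls and 58.3% and 57.1% of the rises had a peak. In single-end Sen these shares were 62.1% and 77.5% for falls and 36.7% and 46.4% for rises.

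Closed regions had closed neighbours little more often than other regions did, and opened regions somewhat more. The nearest region held by all Sen libraries was closed too for 10.2% of the closed regions (95% Wilson interval 9.47 to 11.0, which covers counting error only), against 8.42% over all Sen-held regions. For opened regions the share was 13.2% (12.5 to 13.9), against 9.40% over all regions held by both knockdown libraries. Without siFOXF1/2 replicate 2 the shares were 15.8% against 12.8% and 21.5% against 16.9%. Without replicate 1 the closed share was 11.3% (10.6 to 12.0) against 10.7%, and with a 2-fold bound on the summit 2.41% (1.75 to 3.32) against 1.96%, both within counting error, whereas the opened shares were 15.8% against 11.6% and 8.41% against 5.22%. Most changes stood alone: 4927 closed and 6600 opened regions had no neighbour of the same kind beside them. Runs of 3 or more consecutive regions numbered 54 for closed regions (170 regions, at most 4 in a run) and 140 for opened ones (465 regions, at most 6 in a run). At kept regions, the nearest tested region of a fallen one had fallen in 5.13% of cases (4.40 to 5.97), against 4.996% over all, and had risen in 4.96% (4.25 to 5.79), against 2.90%. Next to a region that rose, the nearest had risen in 4.18% (3.38 to 5.15) and had fallen in 8.35% (7.22 to 9.65), so neighbours of the opposite direction were at least as far above the background as neighbours of the same direction.

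No run of closed regions held more than 4, whereas 7 runs of opened regions held 5 and 5 held 6. Of the longest, that on chromosome 5 from 125206038 to 125434531 spanned 228 kb with a median strength of 13.1, and its strongest member, at 125367582 to 125368076, had 19.3 and 19.8 after knockdown. On chromosome 4 the run from 88443013 to 88579325 had a median of 11.8, with 18.5 and 16.2 at the region from 88510497 to 88511185. Of its 6 regions, 4 had a peak in sip300/CBP replicate 1, 1 in Pro replicate 2 and none in sip65 or JUN-KD. The regions at 88477212 to 88477562 and 88510497 to 88511185 had peaks in both single-end Sen and both sip300/CBP libraries. Single-end Sen replicate 1 also held the region at 88443013 to 88443601. On chromosome 5 the run from 157949036 to 158018852 packed 6 regions into 69.8 kb, with strengths from 4.66 to 14.2, and no library outside the knockdown held any of them. The runs on chromosome 1 from 108506330 to 108559520 (median 10.9) and on chromosome 8 from 67137255 to 67306083 (median 9.08) completed the set. Across the 5 runs, 1 region had a peak in a sip65 library, on chromosome 8 at 67202719 to 67203338, and it was also in sip300/CBP replicate 1 and single-end Sen replicate 1.

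Among the closed runs of 4 regions the strongest was on chromosome 7 from 15396818 to 15820293, with a median strength of 12.6 in Sen. Its outer members had 12.8, 16.3, 13.8 and 17.4 (at 15396818 to 15397292) and 14.7, 13.3, 19.0 and 19.3 (at 15819856 to 15820293). Both outer members had peaks in both single-end Sen libraries, in neither sip300/CBP library and in neither sip65 library. The next of the 8 runs of 4, by median strength, were on chromosome 1 from 187295647 to 187365864 (median 10.4), on chromosome 3 from 109808533 to 110016025 (8.92) and from 76876940 to 76909119 (8.83), and on chromosome 12 from 116456203 to 116526305 (8.76). No member of the chromosome 12 run was held by a Pro or JUN-KD library. A 2-fold bound on the summit was passed by 2 of the 4 regions in the chromosome 7 and chromosome 1 runs, by 1 in the first chromosome 3 run and by 0 in the other chromosome 3 run and the chromosome 12 run.

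On a wider scale, the share of peaks in 1 Mb bins was compared. Of 2189 bins with a mean of at least 10 peaks, the share fell in 180 (8.22%) and rose in 190 (8.68%) by limma at an adjusted p of 0.05, with median log2 changes of -0.25 and 0.34. The groups did not overlap in 175 and 187 of these bins, against 39.4% of all bins. The minimum is a mean over all 6 libraries. A Sen mean under 10 was found in 16 bins, of which 8 were called higher, and a knockdown mean under 10 in 11, of which 9 were called lower, so these entered through the group in which they are high, and 182 higher bins had a Sen mean of at least 10. Leaving out siFOXF1/2 replicate 1 left 37 and 46 bins and leaving out replicate 2 left 101 and 88. Against Sen replicates 1 and 2 alone there were 164 and 181, of which 128 and 144 were the same bins. In the bins that fell, 12.6% of the Sen-held regions closed and 5.86% of the knockdown-held regions opened, whereas in the bins that rose the shares were 4.96% and 18.3%, and in bins without a call 7.74% and 9.20%. Bins were called from the same peaks that define closed and opened regions, so this contrast follows from the calling and is no separate result. Of the kept regions in bins of lower density 4.66% fell in strength and 3.49% rose, close to 4.77% and 3.096% over all bins. In bins of higher density 3.04% rose, whereas 6.06% fell, somewhat above the share over all bins.

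**Figure D4:**
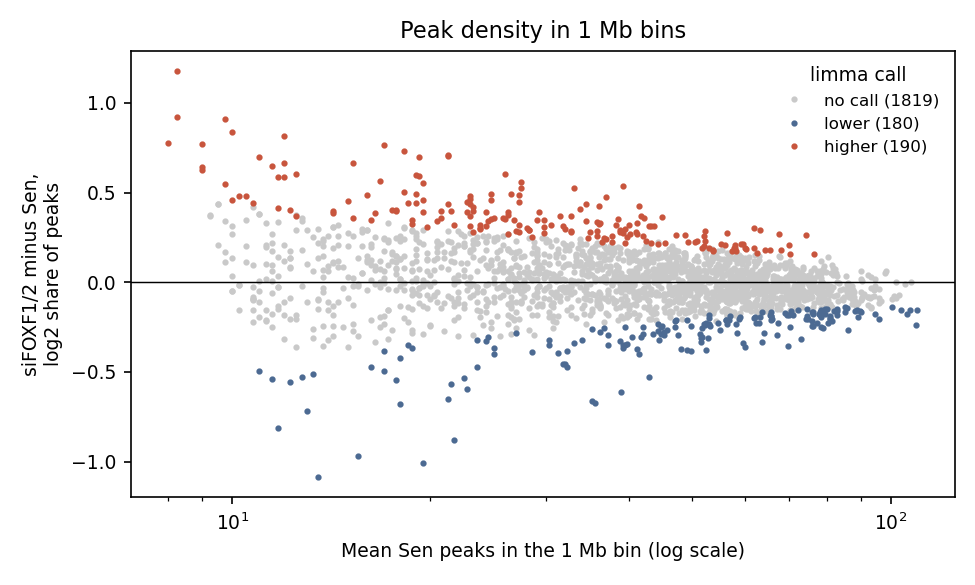
Change in the share of peaks (siFOXF1/2 minus Sen, log2) against the mean number of Sen peaks (log scale) for 2189 bins of 1 Mb, with bins called lower (180) or higher (190) by limma in colour. The changes furthest from 0 in either direction are in bins with few Sen peaks.

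The largest fall in density was on chromosome 7 between 109 and 110 Mb, where the Sen libraries had 13, 14, 15 and 12 peaks and the knockdown libraries 8 and 5 (log2 change -1.09 ± 0.17 (SE), limma adjusted p = 7.98e-05). It opened a stretch of 3 adjacent lower bins from 109 to 112 Mb, the longest in that direction, in which 11 of 69 Sen-held regions closed. In single-end libraries the bin had 8 and 11 peaks in Sen, 4 and 3 in sip300/CBP and 4 and 3 in sip65. On chromosome 7 between 15 and 16 Mb there were 20, 21, 20 and 17 peaks in Sen and 8 and 12 after knockdown (log2 change -1.01), and 7 of 13 Sen-held regions closed there, including the run described above. On chromosome 5 between 30 and 31 Mb there were 15, 16, 14 and 17 against 8 and 8 (log2 change -0.97), and 4 of 11 regions closed, among them the strong region at 30828456 to 30828987. In all 3 bins the groups were well separated, and the bins at 109 Mb and 30 Mb, with knockdown means of 6.5 and 8, passed the minimum through Sen. The falls on chromosome 3 between 89 and 90 Mb (18, 25, 22 and 22 against 9 and 16) and on chromosome 16 between 33 and 34 Mb (11, 7, 16 and 13 against 6 and 7) were less secure. The first missed the threshold without siFOXF1/2 replicate 1 (limma adjusted p = 0.11), and in the second the groups overlap and 0 of 5 Sen-held regions closed.

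The largest rise was on chromosome 8 between 91 and 92 Mb, from 8, 9, 9 and 7 peaks in Sen to 21 and 19 (log2 change 1.18 ± 0.15 (SE), limma adjusted p = 3.41e-05), with 7 of 15 knockdown-held regions opened. In single-end libraries this bin had 7 and 8 peaks in Sen, 15 and 10 in sip300/CBP and 5 and 2 in sip65. On chromosome 4 between 181 and 182 Mb the counts went from 9, 10, 8 and 6 to 17 and 16 (log2 change 0.92), and on chromosome 1 between 80 and 81 Mb from 9, 10, 10 and 10 to 20 and 19 (log2 change 0.91). Both knockdown libraries were close together in each of these 3 bins, which had Sen means of 8.25, 8.25 and 9.75 and so passed the minimum through the knockdown libraries. On chromosome 16 between 49 and 50 Mb there were 10, 14, 8 and 8 peaks in Sen against 19 and 18 (log2 change 0.83), and 2 and 5 in single-end Sen, 12 and 8 in sip300/CBP and 0 and 0 in sip65. The rise on chromosome 4 between 49 and 50 Mb (13, 15, 9 and 11 against 21 and 23) came with 1 opened region of 6 held by both knockdown libraries. Among higher bins the longest stretches were 3 bins on chromosome 9 from 79 to 82 Mb, where 25 of 135 regions opened, and on chromosome 5 from 156 to 159 Mb, where 32 of 149 opened.

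The called bins were also read in the single-end libraries. In the 180 lower bins the median log2 change in peak density was -0.17 after p300/CBP knockdown (-0.17 and -0.15 in replicates 1 and 2) and 0.04 after p65 knockdown (0.04 and 0.06). In the 190 higher bins it was 0.10 (0.15 and 0.06) and -0.19 (-0.14 and -0.16). The medians over all bins were 0.01 and 0.00, and single-end Sen replicate 1 minus replicate 2 gave -0.04 in the lower and 0.05 in the higher bins. The p65 shift in the lower bins was no larger than this difference between controls, and the p300/CBP shift in the higher bins was close to it in replicate 2. After p300/CBP knockdown 70.6% of the lower bins were below 0, against 49.4% of all bins, and after p65 knockdown 67.9% of the higher bins were, against 48.9%. These values carry no test.

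Whole chromosomes differed in how many regions closed or opened. The share closed ran from 3.57% (2.89 to 4.42, 95% Wilson interval) on chromosome 19 to 9.88% (8.70 to 11.2) on chromosome 13, and the share opened from 4.76% (4.00 to 5.65) on chromosome 19 to 11.7% (10.8 to 12.7) on chromosome 4. Chromosome 19 was the lowest on both measures, followed by chromosomes 17 and 22 for closing and 17 and 16 for opening. The share of all peaks per chromosome hardly moved: limma called 5 chromosomes lower (22.7%) and 4 higher (18.2%), with log2 changes from -0.06 on chromosome 21 to 0.02 on chromosome 1. Chromosome 7 went from 4.98%, 4.98%, 5.01% and 4.97% of peaks in Sen to 4.90% and 4.91%. Against Sen replicates 1 and 2 alone 0 and 0 chromosomes were called, with 3 and 1 at an unadjusted p under 0.05. Without Sen replicate 1 the lower calls numbered 3, without Sen replicate 3 or 4 there were 3 lower and 2 higher, and without siFOXF1/2 replicate 2 there were 2 and 2.

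**Figure D5:**
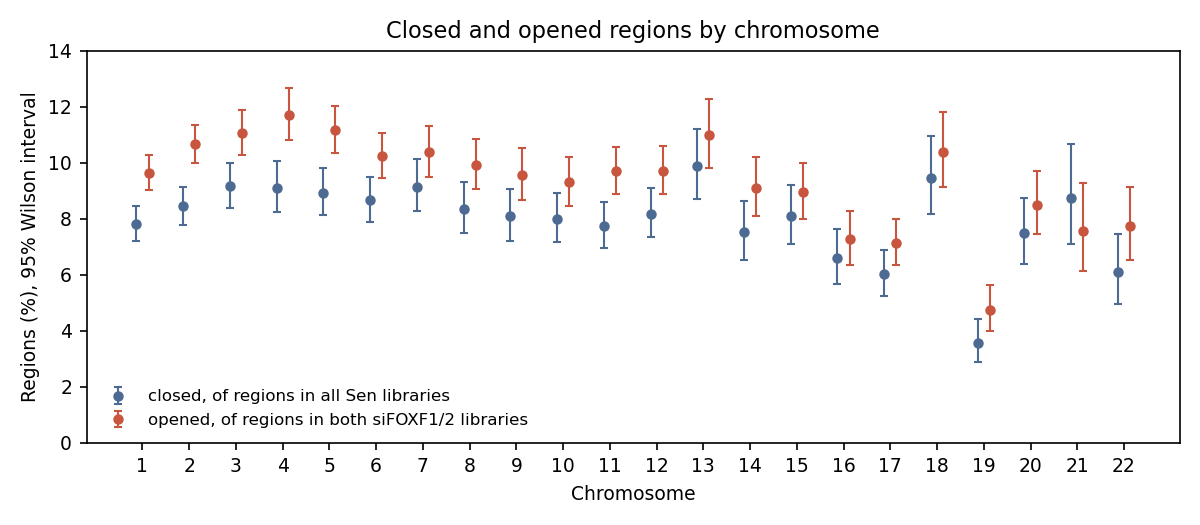
Percent of regions closed (of those held by all Sen libraries) and opened (of those held by both siFOXF1/2 libraries) on each autosome, with 95% Wilson intervals for counting error. Chromosome 19 is the lowest for both, at 3.57% and 4.76%, and chromosomes 13 (closed, 9.88%) and 4 (opened, 11.7%) are the highest.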

How the data were processed

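Peak lists of 16 ATAC-seq libraries were used, 1 list per library in the narrowPeak layout of MACS2, meaning that replicates were not pooled for peak calling. Bowtie2 2.3.4.1, SAMtools 1.9, deepTools 3.1.1, MACS2 2.1.1 and genome build hg19 are named in the submitters' processing notes, whereas the sources used here do not give caller settings, duplicate handling or the shift of reads for the transposase. Every peak has, as deposited by the authors, a fold ratio of its summit to the local background and the −log10 of its p-value and q-value. The lowest deposited −log10 q lies just above 4 in every list.

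Regions were merged with a minimum overlap of 1 bp. A region's strength was the highest fold in it. Strength, covered width, and the density of peaks in 1 Mb bins (log2 of peaks plus a pseudocount of 0.5 per 100000 peaks) were compared with limma 3.58.1 in R 4.3.3 (trend and robust moderation, no covariate), with Benjamini-Hochberg adjustment over all regions or bins at 0.05, and strength and width were centred on each library's median. Single values per library went into exact permutation tests, two-sided. Shares carry 95% Wilson intervals for counting error over regions.

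Summit pileup and local background were recovered from the fold and the p-value, with whole pileups for 100% of peaks in the 6 libraries compared, and background coverage was taken as the 1st percentile of those local values. The bound on a fold divides the lowest pileup over background in the libraries holding a region by the highest that could have gone unlisted in the others.

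The limma script was tested on simulated strengths for 2 against 4 libraries, with 50 regions changed at each size. It recovered 15 and 19 of 50 at log2 changes of -1 and 1, and 4 and 9 of 50 at -0.7 and 0.7, with 0 false calls. Most changes of these sizes thus went uncalled in the simulation. Its noise was independent between libraries, and far fewer regions were changed than were called in the data. Neither the recovery nor the number of false calls therefore carries over to the real fit. Regions are named by a rule: the 8 largest falls and rises in strength with groups that do not overlap, the 5 longest runs, the 5 strongest and 5 widest closed and opened regions, and the 5 bins with the largest change in each direction. Regions described within runs, the 5 opened regions in all single-end libraries, and the division of single-end regions into 3 groups by strength were chosen after seeing the data. The comparison, the lists and this rule were chosen with earlier results of these data known. Motif searches and gene names need a genome of build hg19, and none was used here, so regions carry coordinates only.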

Additional observations from a re-analysis of the deposited data

Results flagged for a closer look

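The bin on chromosome 1 between 80 and 81 Mb rose in its share of peaks after knockdown. There Sen replicate 1 had 9 peaks while Sen replicates 2 to 4 had 10 each, which sets it apart by Dixon's criterion. Because the other counts are equal, any different count would meet the criterion, however small the difference. Both knockdown libraries had more, with 20 and 19. Of 44 groups of 4 libraries checked, this was the only group set apart in this way, and chance gives about 1 in 20 for values without ties.

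The X chromosome lies outside the autosomes compared. There, 138 of 1636 regions held by all Sen libraries closed (8.44%), and 200 of 2029 regions held by both knockdown libraries opened (9.86%), shares beside 8.09% and 9.7% on the autosomes.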

How the results depend on the processing

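No named region or bin changed direction in the alternatives run. Some called regions did for summit pileup over background, and the balance of falls and rises in strength did without centring (both below). Regions named for strength were chosen with groups that do not overlap, so leaving out libraries could hardly turn their direction. Closed and opened regions numbered 1492 and 4961 with a 2-fold bound on pileup over background, 2097 and 3521 with the bound scaled on kept regions (an alternative added after seeing the data), 9654 and 10917 against Sen replicates 1 and 2, and 10717 and 14174 against replicates 3 and 4. Leaving out 1 library gave 6847 to 9311 and 9196 to 17645. The share of closed regions with a closed neighbour was 12.8%, 2.41%, 3.53%, 13.7% and 15.1% with peaks covering 50% of the region, the 2 bounds and the 2 pairs of Sen libraries (11.1% to 15.8% without 1 library), and that of opened regions 17.8%, 8.41%, 5.88%, 15.1% and 19.8% (13.7% to 21.5%). In each of these settings it stayed above the share over all regions, for closed regions within counting error without siFOXF1/2 replicate 1 and with the 2-fold bound on pileup over background.

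Strength gave 1148 falls and 1151 rises against Sen replicates 1 and 2, 9926 and 7803 against replicates 3 and 4, 1077 and 529 among regions above the median strength, 7781 and 6373 for summit pileup over background, 2094 and 3664 without centring, and 340 to 4642 and 21 to 3919 without 1 library. Of the reported calls, 75.3% of falls and 64.2% of rises were called again for summit pileup. On that measure 2875 of 3062 falls and 1919 of 1987 rises kept their direction, and the others reversed. Width gave 0 and 0 against Sen replicates 1 and 2, 826 and 1349 against replicates 3 and 4, 101 and 33 with the prefix style as a covariate, 0 and 0 without centring, 246 and 154 above the median strength, and 122 to 609 and 20 to 534 without 1 library. Bins gave 288 lower and 253 higher of 3576 tested at 0.5 Mb, and 109 lower and 121 higher of 1235 at 2 Mb. At 1 Mb there were 180 and 190 of 2189, so counts at different bin sizes have to be read beside these totals. Bins of 1 Mb gave 37 to 190 lower and 46 to 221 higher without 1 library. Chromosome shares gave 0 and 0 against Sen replicates 1 and 2, and 2 to 5 and 2 to 3 without 1 library. Where samples or regions were left out, fewer entered the fit; the cause of other shifts was not tested.

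Replicate numbers 1 and 2 occur in both groups, but no label says that they mark pairs, and the differences between replicates 1 and 2 correlated at 0.06 (strength), 0.04 (width) and 0.07 (bins). With the replicate number as a block, on Sen replicates 1 and 2 and the knockdown, limma called 2111 falls and 1965 rises in strength, 0 narrower and 0 wider regions (5671 and 4888 at an unadjusted p under 0.05), 156 lower and 178 higher bins, and 2 lower and 2 higher chromosomes. Equal list lengths, a −log10 q cutoff of 5, quantile normalisation, a pseudocount of 2 and bins with any peak moved no count by over 1.5 times. The weakest regions lie next to the limit of listing, and the part depth plays there was not tested.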
